A study of Homo sapiens with 9 samples.

Results

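Small nucleolar RNAs (snoRNAs) guide the chemical modification and the processing of ribosomal RNA, and each works inside a protein shell, the snoRNP. Box C/D snoRNPs carry the methyltransferase fibrillarin together with NOP56, NOP58 and SNU13, and modify the ribose of the target nucleotide. Box H/ACA snoRNPs carry the pseudouridine synthase dyskerin together with NHP2, NOP10 and GAR1, and the same proteins bind the telomerase RNA. Dyskerin is held by the chaperone SHQ1 before it meets NAF1, which is later exchanged for GAR1. Germline variants of several H/ACA proteins are known to cause dyskeratosis congenita, a bone marrow failure disorder.

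The mRNAs of 9 such proteins were examined out of 30017 genes in the count table. They were chosen by symbol and by known role: *FBL*, *NOP56* and *NOP58* of the box C/D core, *DKC1*, *NHP2*, *NOP10* and *GAR1* of the box H/ACA core, and the assembly factors *NAF1* and *SHQ1*. This choice, and that of the gene lists below, was made with earlier results of these data known. All 9 passed the filter on low counts, which left 12712 genes. RNA-seq had been performed on MOLM13, a human acute myeloid leukemia line, transduced with lentiviral pLKO-GFP vectors and sorted for GFP on day 4. The 3 groups carried sh-Control, shDDX41 #1 or shDDX41 #2, with 3 libraries each named A, B and D, so that every group, control included, carried the vector and GFP. *DDX41* encodes a DEAD-box helicase that is mutated in familial myeloid neoplasms. The study describes its quantified assays as biologically replicated, without naming separate transductions for these libraries, so the p-values measure the spread between them, which may be in part technical.

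Total counts ranged from 16385238 to 20510032 per library. *DDX41* read 117, 115 and 113 counts per 1000000 (CPM) in sh-Control, 12.2, 12.9 and 9.95 CPM in shDDX41 #1, and 38.9, 39.9 and 42.5 CPM in shDDX41 #2. Its mRNA was thus 89.8% lower with hairpin #1 and 64.8% lower with hairpin #2. Each level of knockdown was reached with its own hairpin. The amount of *DDX41* and any other effect of a hairpin therefore cannot be told apart. Library D of shDDX41 #1 stood apart from its partners, with a chi-square per degree of freedom of 17.6 and 19.2 over all genes against 2.91 between A and B, and results that move without it are given both ways. Pairs of sh-Control libraries gave 7.998, 8.35 and 10.1, and pairs of shDDX41 #2 libraries gave 2.45, 2.72 and 3.25. The spread was thus uneven between the groups, which share an estimate of it in the test. Of 9 monocytic and myeloid markers, *LYZ* was at 837.6 CPM or more in every library while the monocyte marker *CD14* reached at most 0.182 CPM. Their summed level was 1970 to 2030 CPM in sh-Control, 1990 to 2010 in shDDX41 #1 and 2910 to 2950 in shDDX41 #2. *LYZ* made up most of that difference, with means of 931, 870.4 and 1818 CPM, and without it the sums were 1044 to 1089, 1096 to 1150 and 1082 to 1134 CPM. Single markers did change with #1. By edgeR's test 3 of the 8 tested passed an adjusted p of 0.05, beside 47.8% of all genes. On the log2 scale *CSF1R* fell (-0.86, adjusted p = 3.79e-05), and *CD33* (0.25, adjusted p = 0.00462) and *FLT3* (0.20, adjusted p = 0.0204) rose. Of 8 markers of other cell types, *MS4A1*, *HBB* and *CDH1* were at 0 in all libraries, and the summed level stayed at or below 2.61 CPM. The T cell marker *CD3D* made up much of it, with means of 1.16, 0.483 and 1.92 CPM, and fell with #1 (-1.25, adjusted p = 0.00877). In bulk RNA, fewer cells with an mRNA and less of it per cell cannot be told apart.

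Per kilobase of the principal GENCODE transcript, the members differed widely in sh-Control. *FBL* was highest at 389.8 CPM per kb, followed by *NOP56* at 219, *NOP10* at 188, *NHP2* at 163.5, *NOP58* at 129 and *DKC1* at 116. *GAR1* followed at 50.4 CPM per kb, and the assembly factors *SHQ1* and *NAF1* were lowest at 21.2 and 12.5. The ranges of neighbours in this order did not overlap over the 3 control libraries. The mRNA of each core protein was therefore above those of both assembly factors on this scale.

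The first comparison asked how the strong knockdown changed these mRNAs. With shDDX41 #1, *DKC1* fell by 50.7%, *NHP2* by 24.9% and *NOP58* by 13.1%, while *SHQ1* rose by 34.4%. By edgeR's quasi-likelihood test with Benjamini-Hochberg adjustment over all genes, 4 of 9 members passed an adjusted p of 0.05, beside 47.8% of all genes tested. By direction, 3 members were lower, beside 24.1% of all genes, and 1 was higher, beside 23.7%. The libraries of both groups did not overlap for 5 of 9 members, beside 53.1% of all genes. The share of members called was thus near that of all genes, and the median log2 fold change was -0.05 over the members against 0.01 over all genes. Without library A of shDDX41 #1, 3 members were called, 2 of them lower, without library B 5 were called, 3 of them lower, and without library D 5 were called, 4 of them lower. Over all genes, those fits called 5431 of 12897, 5509 of 12890 and 6256 of 12902 in the same order.

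The second comparison asked the same of the partial knockdown. With shDDX41 #2, *NOP56* fell by 22.9%, *GAR1* by 21.8%, *NOP10* by 16.6%, *NOP58* by 14.99% and *DKC1* by 12.7%, while *SHQ1* rose by 52.3%. In all, 6 of 9 members were called, beside 25% of all genes. Lower members numbered 5, beside 13.4% of all genes, and 1 was higher, beside 11.6%. The groups did not overlap for 6 of 9 members, beside 43.8% of all genes. Without library B or D of shDDX41 #2, 4 members were called, 3 of them lower. Calls over all genes fell as well, to 2054 of 12884 without B and 2129 of 12910 without D. Without library D of shDDX41 #1, 6 members were called, beside 4248 of 12902 genes. The median log2 fold change was -0.20 over the members and -0.01 over all genes. Both hairpin groups were set against the same 3 sh-Control libraries, so the 2 comparisons are not independent.

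The third comparison set the hairpins against each other. With shDDX41 #1, 5 members were higher than with shDDX41 #2 (*FBL*, *NOP56*, *NOP10*, *GAR1* and *NAF1*), beside 24.6% of all genes, and 3 were lower (*DKC1*, *NHP2* and *SHQ1*), beside 24.2%. Thus 8 of 9 members were called, beside 48.8% of all genes, and the groups did not overlap for 8 members, beside 57.7%. The count was 7 without library D of shDDX41 #1, and 5, 5 and 4 without library A, B or D of shDDX41 #2. Over all genes, 6328 of 12902 were called without library D of shDDX41 #1. Without library A, B or D of shDDX41 #2, 5272 of 12872, 5169 of 12884 and 5284 of 12910 were called. *NOP58* was the member not called, with a log2 difference of 0.03 (95% interval -0.10 to 0.16).

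**Figure D1:**
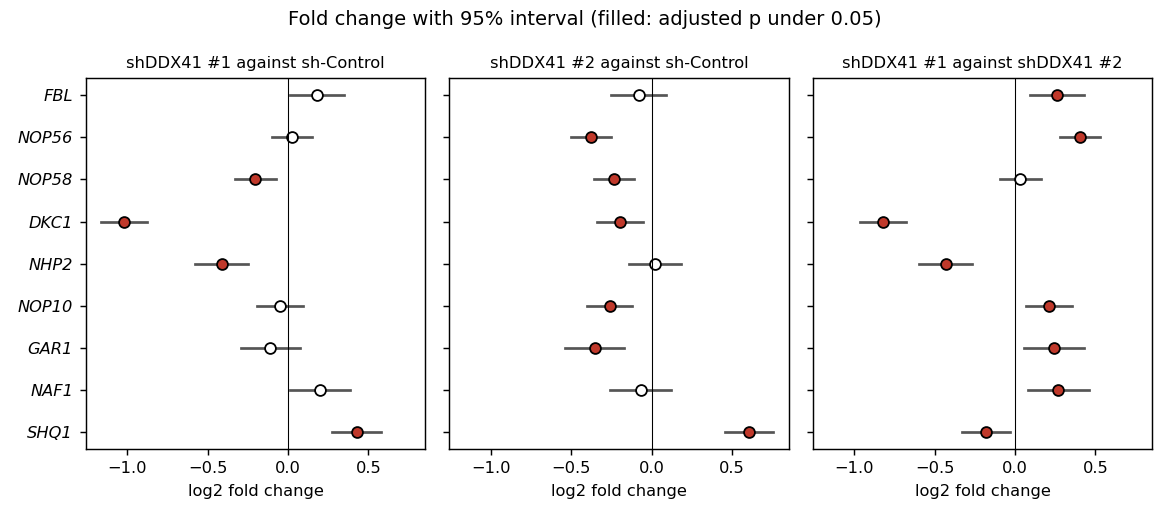
Log2 fold change (x axis) of each of the 9 snoRNP genes in the 3 comparisons, with bars for the 95% interval from edgeR over 9 libraries and filled points for an adjusted p under 0.05. *DKC1* lies farthest to the left with shDDX41 #1 at -1.02, and *SHQ1* lies to the right of 0 with both hairpins.

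*DKC1* encodes dyskerin, the catalytic subunit of H/ACA snoRNPs, and lies on chromosome X in GRCh38, chrX:154762742-154777689, on the plus strand. Its mRNA read 279, 299 and 319 CPM in sh-Control, 139, 152 and 153 CPM in shDDX41 #1, and 259, 258 and 267 CPM in shDDX41 #2. Every shDDX41 #1 library was far below every other library, and the shDDX41 #2 libraries sat just below the lowest control. The log2 fold change was -1.02 ± 0.07 (SE, n = 3 against 3, adjusted p = 2.42e-08 by edgeR) with #1 and -0.20 ± 0.07 (adjusted p = 0.0403) with #2. The groups with the hairpins differed by -0.82 (adjusted p = 1.87e-07). The fall with #1 and the difference between hairpins were called under all 16 alternatives, whereas the call with #2 was lost under 8 of 16, including without library B (adjusted p = 0.0929) or D (0.158) of sh-Control and without library A (0.121), B (0.127) or D (0.082) of shDDX41 #2.

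*NHP2*, an RNA-binding subunit of the same particle (chr5:178149460-178153967, minus strand), read 147, 131 and 146 CPM in sh-Control. It read 99.3, 100.1 and 119 CPM in shDDX41 #1 and 146, 145 and 139.6 CPM in shDDX41 #2. Only the strong hairpin's libraries stood below the controls, and library D was the highest of them. The log2 fold change was -0.41 ± 0.08 (adjusted p = 0.000472) with #1 and 0.02 (95% interval -0.14 to 0.18) with #2, and the hairpins differed by -0.43 (adjusted p = 0.000296). *NHP2* overlaps *RMND5B* on the opposite strand over 1106 bases, and *RMND5B* had at most 362 counts in a library.

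*NOP10* and *GAR1* encode the 2 small remaining core subunits. *NOP10* (chr15:34341713-34343177, minus strand) read 101, 101 and 109.9 CPM in sh-Control, 99.9, 95.7 and 105 CPM in shDDX41 #1, and 90.6, 84.6 and 84.9 CPM in shDDX41 #2. All shDDX41 #2 libraries were below all others, while #1 and control overlapped. *NOP10* fell by 0.26 on the log2 scale with #2 (SE 0.0663, adjusted p = 0.0099) and changed by -0.05 (95% interval -0.19 to 0.09) with #1. The hairpins differed by 0.21 (adjusted p = 0.0165). Without library B of shDDX41 #2 the call against control was lost (adjusted p = 0.0514), and the difference between hairpins was lost without library B (0.0689) or D (0.0661) of shDDX41 #2.

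*GAR1* (chr4:109815510-109824740, plus strand) read 59.2, 63.1 and 62.7 CPM in sh-Control, 50.8, 54.8 and 65.8 CPM in shDDX41 #1, and 48.3, 50.5 and 45.9 CPM in shDDX41 #2. Library D of shDDX41 #1 was above all controls, whereas A and B were below them. *GAR1* fell by 0.35 with #2 (SE 0.0865, adjusted p = 0.00798) and its value with #1 was -0.11 (adjusted p = 0.307), or -0.21 (adjusted p = 0.0174) without library D. The difference between hairpins, 0.24 (adjusted p = 0.0307), was lost without library D of shDDX41 #1 (0.13, adjusted p = 0.131) and without library A (0.0773) or D (0.116) of shDDX41 #2.

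The subunits of the H/ACA core thus did not move together. The ratio of *DKC1* to *GAR1* counts within a library was 4.85 ± 0.21 (SD, n = 3) in sh-Control, 2.61 ± 0.25 in shDDX41 #1 and 5.43 ± 0.37 in shDDX41 #2. *DKC1* to *NOP10* gave 2.88, 1.47 and 3.02 in the same order, and *DKC1* to *NHP2* gave 2.12, 1.397 and 1.82. In all 3 ratios, each shDDX41 #1 library was below each library of the other groups. Such ratios do not depend on how libraries are scaled, but they are ratios of reads and not of molecules. An exact permutation test of 3 against 3 libraries cannot give a p below 0.1, so the ratios are given as a description.

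**Figure D2:**
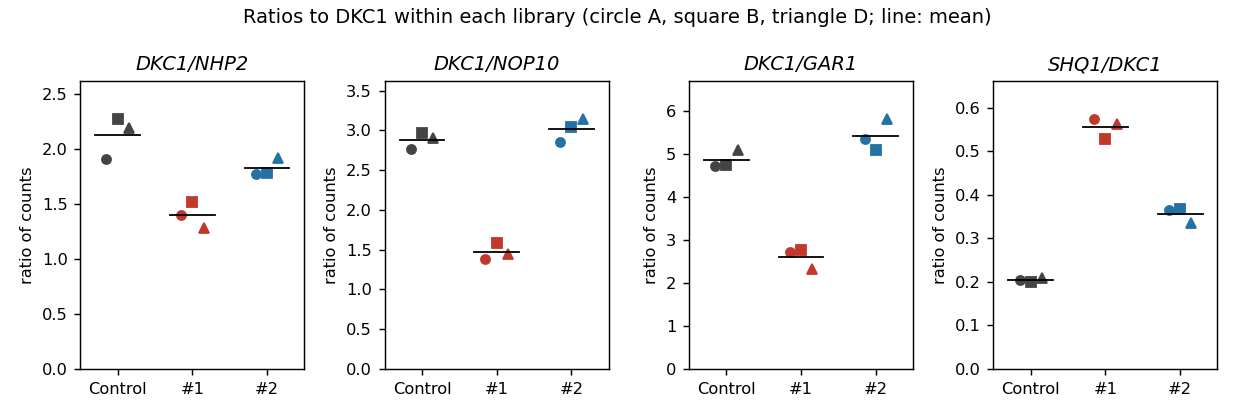
Ratio of counts within each library (y axis, from 0) for *DKC1* over *NHP2*, *NOP10* and *GAR1*, and for *SHQ1* over *DKC1*, with 1 point per library and a line at the group mean. The ratio of *DKC1* to each partner is lowest in shDDX41 #1, and *SHQ1* to *DKC1* rises from a mean of 0.204 in sh-Control to 0.556 in shDDX41 #1 and 0.356 in shDDX41 #2.

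Both assembly factors act on dyskerin. *SHQ1*, its chaperone (chr3:72749277-72861914, minus strand), read 56.9, 59.5 and 66.5 CPM in sh-Control, 79.8, 80.1 and 85.97 CPM in shDDX41 #1, and 94.4, 94.7 and 89.6 CPM in shDDX41 #2. The 3 groups did not overlap, and the partial hairpin gave the highest level. *SHQ1* rose by 0.43 ± 0.07 on the log2 scale with #1 (adjusted p = 0.000187) and by 0.61 ± 0.07 with #2 (adjusted p = 2.79e-05), and both calls held under all 16 alternatives. The difference between hairpins was -0.18 (adjusted p = 0.0444) and was lost under 7 of 16 alternatives, among them without library A (0.109) or B (0.101) of shDDX41 #1 and without library A (0.122), B (0.126) or D (0.0584) of shDDX41 #2. No other member was called higher than control, except with #1 *FBL* (0.26, adjusted p = 0.0193) and *NAF1* (0.27, adjusted p = 0.0173) under upper quartile scaling and *FBL* without library B of shDDX41 #1 (0.24).

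*NAF1*, which occupies the place of GAR1 during assembly (chr4:163110073-163166921, minus strand), read 23.98, 25.001 and 22.7 CPM in sh-Control. It read 28.8, 26.4 and 27.1 CPM in shDDX41 #1 and 21.7, 21.4 and 25.4 CPM in shDDX41 #2. The shDDX41 #1 libraries were above all others, but the change from control, 0.20 (95% interval 0.01 to 0.39), did not pass the adjustment (adjusted p = 0.0761). The value with #2 was -0.07 (adjusted p = 0.614), and the hairpins differed by 0.27 (adjusted p = 0.0215), a call lost without library A of shDDX41 #1 (0.0863) and without library A (0.0903) or B (0.0972) of shDDX41 #2. *NAF1* also overlaps an antisense gene, for which the count table had no entry.

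Among box C/D proteins, *NOP56* fell with the partial hairpin and differed between hairpins. This scaffold protein (chr20:2652145-2658393, plus strand) read 505, 543 and 531 CPM in sh-Control, 539, 548 and 521 CPM in shDDX41 #1, and 412, 403 and 402 CPM in shDDX41 #2. Libraries of #1 lay within the range of the controls or just above it, and those of #2 were well below. The log2 fold change was 0.03 (95% interval -0.10 to 0.15) with #1 and -0.38 ± 0.06 (adjusted p = 0.000322) with #2, and the hairpins differed by 0.40 (adjusted p = 4.94e-05). The latter 2 calls held under all 16 alternatives.

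*NOP58*, the paralogous scaffold (chr2:202265716-202303666, plus strand), read 254, 268 and 269 CPM in sh-Control, 221, 231 and 235 CPM in shDDX41 #1, and 231, 225 and 216 CPM in shDDX41 #2. Both hairpin groups were below every control and overlapped each other. The log2 fold change was -0.20 ± 0.06 (adjusted p = 0.0111) with #1 and -0.23 ± 0.06 (adjusted p = 0.0101) with #2. The first was lost without library A of shDDX41 #1 (adjusted p = 0.0545) or with upper quartile scaling (0.0927), and the second without library D of shDDX41 #2 (0.0595). The ratio of *NOP58* to *NOP56* counts was 0.501 ± 0.007 (SD, n = 3) in sh-Control, 0.427 ± 0.0205 in shDDX41 #1 and 0.552 ± 0.013 in shDDX41 #2, with no overlap between groups.

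*FBL*, the methyltransferase (chr19:39834458-39846414, minus strand), read 470.5, 424 and 462 CPM in sh-Control, 486, 469 and 582 CPM in shDDX41 #1, and 437, 438 and 408 CPM in shDDX41 #2. Library D of shDDX41 #1 was far above the rest. With #1 the value was 0.18 (adjusted p = 0.0755), 0.09 without library D (adjusted p = 0.245) and 0.24 without library B (adjusted p = 0.0292), and with #2 it was -0.08 (adjusted p = 0.494). The hairpins differed by 0.26 (adjusted p = 0.014), 0.16 without library D of shDDX41 #1 (adjusted p = 0.0363), and the call was lost without library D of shDDX41 #2 (0.0689).

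**Figure D3:**
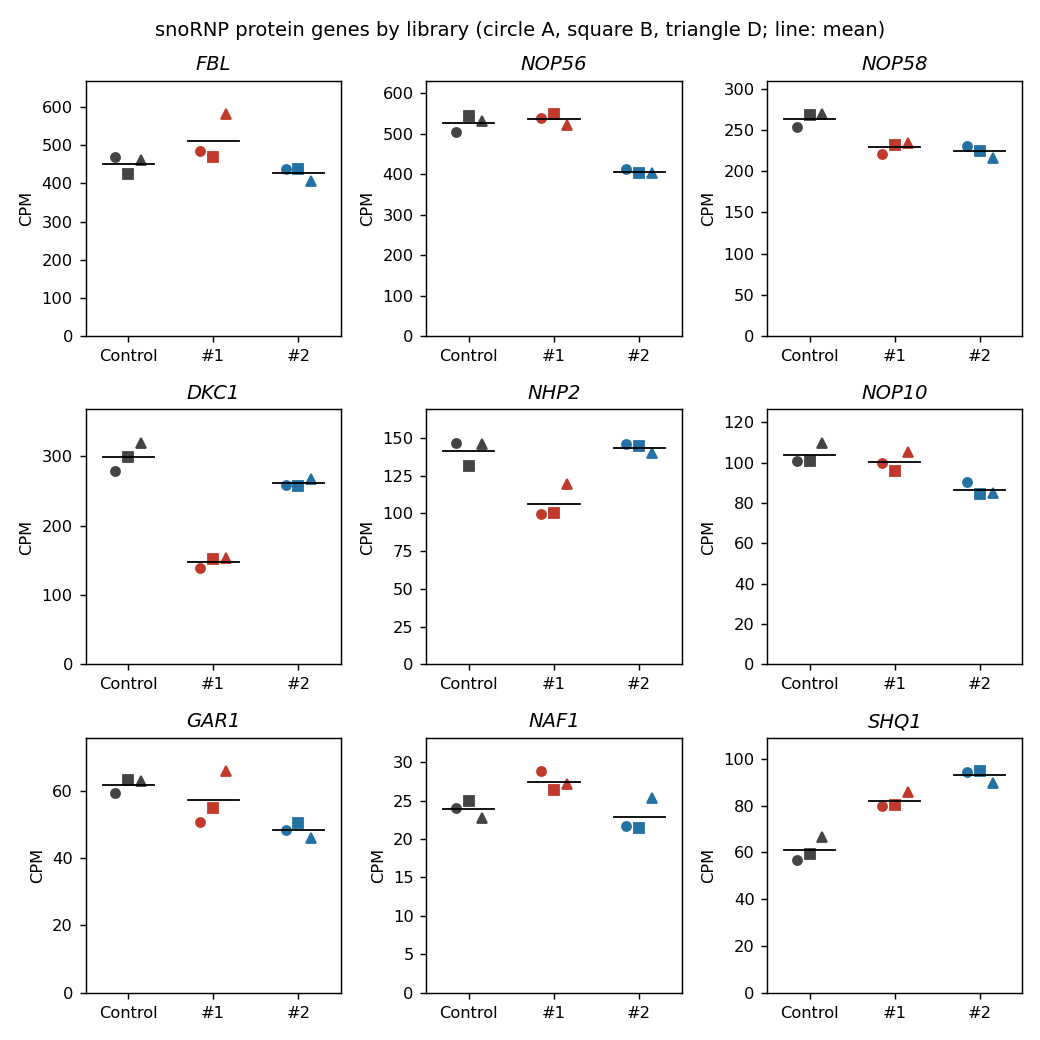
Level of each of the 9 mRNAs in CPM (y axis, from 0) in the 9 libraries, with 1 point per library, its shape for the letter A, B or D, and a line at the mean of each group. *DKC1* and *NHP2* have their lowest mean in shDDX41 #1, *NOP56*, *NOP10* and *GAR1* have their lowest mean in shDDX41 #2, and *SHQ1* is above control with both hairpins.

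The members were also compared by profile over the 9 libraries, as the root mean square (RMS) difference of log2 CPM after centring each gene. Genes were not scaled, so this difference depends on the size of the changes as well as on their pattern. *NOP58* and *NOP10* were the closest pair of members (0.0916) and *DKC1* and *SHQ1* the farthest (0.594). Among 7341 other genes with a mean of at least 20 CPM, those nearest to *DKC1* were *NUF2*, a kinetochore component, at 0.0494 and *NCAPG*, a condensin subunit, at 0.0527. The nearest to *NOP56* were *PGAM5* (0.0432) and *DDX55* (0.0434), to *NHP2* *KIAA0101* (0.044) and *ARF6* (0.0484), and to *SHQ1* *ATP6V1H* (0.047) and *NCOA4* (0.065). For the other members the nearest pairs were *PPA1* and *RNF11* (*FBL*), *TFB2M* and *PITPNB* (*NOP58*), *JMJD4* and *MRPS7* (*NOP10*), *NDRG2* and *PRPSAP2* (*GAR1*), and *ATG9A* and *MCU* (*NAF1*).

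Human snoRNAs are mostly cut from the introns of host genes, and *NOP56*, *NOP58* and *DKC1* are such hosts. The 4 snoRNA genes in *NOP56* introns with enough counts for the test are shown because 3 of them rose with shDDX41 #1 while *NOP56* itself did not pass the test. All are on the plus strand of GRCh38 by GENCODE v29, and the sequences are those of the reference transcripts. Capitals mark TGATGA, the core of the C box, where it starts in the first 20 bases, and CTGA, the D box, where it starts in the last 20 bases, or ACA within the last 10 bases of the H/ACA RNA, read on the transcript strand.
SNORD110 (intron 3, chr20:2654212-2654286): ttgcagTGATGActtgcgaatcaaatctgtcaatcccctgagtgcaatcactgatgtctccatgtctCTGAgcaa
SNORA51 (intron 5, chr20:2655067-2655198): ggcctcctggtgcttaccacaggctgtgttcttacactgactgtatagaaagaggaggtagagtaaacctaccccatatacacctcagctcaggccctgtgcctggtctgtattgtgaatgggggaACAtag
SNORD56 (intron 9, chr20:2656624-2656694): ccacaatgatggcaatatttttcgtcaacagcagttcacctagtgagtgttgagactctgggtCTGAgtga
SNORD57 (intron 10, chr20:2656939-2657010): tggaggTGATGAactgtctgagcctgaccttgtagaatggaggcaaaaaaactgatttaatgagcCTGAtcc
Both box C/D letters were found in *SNORD110* and *SNORD57*, as in 65.3% of 288 annotated SNORD transcripts, with TGATGA in 67% and CTGA in 94.4% of them. ACA was found in 89.9% of 149 SNORA transcripts.

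*SNORD57* had 11, 12 and 15 counts in sh-Control, 29, 46 and 33 in shDDX41 #1, and 6, 12 and 11 in shDDX41 #2. *SNORD56* had 22, 23 and 21 counts, then 33, 37 and 43, then 26, 18 and 9 in the same order. *SNORD110* had 21, 22 and 29 counts, then 64, 66 and 29, then 18, 28 and 27. In shDDX41 #1, *SNORD57* and *SNORD56* were high in all 3 libraries, whereas *SNORD110* was high in A and B alone. The log2 fold change with #1 was 1.63 ± 0.305 for *SNORD57* (adjusted p = 0.000487), 1.27 ± 0.31 for *SNORD110* (adjusted p = 0.00314) and 0.90 ± 0.29 for *SNORD56* (adjusted p = 0.017), the last lost without library D of sh-Control (adjusted p = 0.0544).

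*SNORA51* had 8, 16 and 14 counts in sh-Control, 21, 29 and 7 in shDDX41 #1, and 7, 8 and 11 in shDDX41 #2. Its value with #1 was 0.71 (adjusted p = 0.203), and 1.11 (adjusted p = 0.0234) without library D. With #1, 3 of the 4 were called, all higher, beside 23.7% of all genes called higher. With #2 none of the 4 was called, beside 25% of all genes. Between the hairpins all 4 were higher with #1, by 2.03 (*SNORD57*), 1.26 (*SNORD110*), 1.24 (*SNORD56*) and 1.26 (*SNORA51*, adjusted p = 0.0386). Of all genes, 24.6% were called higher with #1 than with #2.

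Summed over the 5 snoRNA genes of *NOP56*, counts per 1000 *NOP56* counts were 6.82, 7.72 and 7.83 in sh-Control, 16.4, 19.4 and 13.0 in shDDX41 #1, and 7.47, 8.13 and 8.75 in shDDX41 #2. All #1 libraries were above all others. These are few reads from poly(A)-selected RNA, and some annotated *NOP56* transcripts have exons over each of these snoRNA genes, so mature snoRNA and unspliced or alternative host RNA cannot be told apart. The fifth, *SNORD86*, had 0 counts in every library, as did *SNORA36A* and *SNORA56* in *DKC1* introns. *SNORD11* in *NOP58* had at most 8 counts in a library, *SNORD11B* at most 3 and *SNORD70* at most 2, too few for the test.

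**Figure D4:**
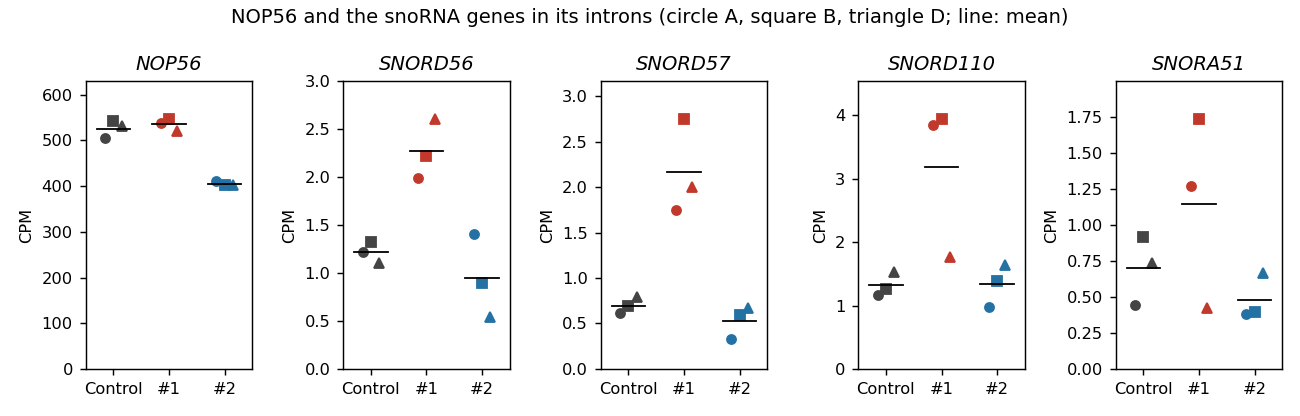
CPM (y axis, from 0) of *NOP56* and of 4 snoRNA genes in its introns in the 9 libraries, with 1 point per library and a line at the group mean. *SNORD56* and *SNORD57* lie above all other libraries in shDDX41 #1, where *NOP56* lies between 521 and 548 CPM, and library D of *SNORD110* and *SNORA51* lies apart from A and B.

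The transcription factor MYC is known to bind genes of ribosome biogenesis at the letters CACGTG, the E-box, so the promoters of the members were searched for it. RefSeq promoters, from 250 bases before to 50 after a start in GRCh38.p14, were at hand for 7 of 9 members. The letters, which read the same on both strands, stood in a promoter of 3 of these members, and in 7.26% of 35116 promoters. The first count is by gene and the second by promoter. *GAR1* had a match at its second start and none at its first. The 30 bases around each match are shown, CACGTG in capitals, each on the strand of its gene, with the position counted from the start.
FBL, +7, minus strand (chr19:39846356-39846385): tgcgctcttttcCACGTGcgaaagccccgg
NOP10, -170, minus strand (chr15:34343289-34343318): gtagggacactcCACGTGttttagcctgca
NOP10, -11, minus strand (chr15:34343130-34343159): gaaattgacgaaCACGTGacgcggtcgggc
GAR1, second start, +32, plus strand (chr4:109815781-109815810): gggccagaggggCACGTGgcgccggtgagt
*NOP10* held 2 matches, and 2 or more stood in 0.664% of all promoters. None of the 3 genes was called with #1, and with #2 *NOP10* and *GAR1* fell while *FBL* did not pass the test. Among members whose promoters held no match, *NOP56* (-0.38) and *DKC1* (-0.20) also fell with #2, *NHP2* was not called and *SHQ1* rose. A tie between the match and these changes was not tested.

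*MYC* itself read 403, 440.1 and 421 CPM in sh-Control, 629, 612 and 542 CPM in shDDX41 #1, and 258, 263 and 306 CPM in shDDX41 #2. The 3 groups did not overlap, with #1 above and #2 below control. Its log2 fold change was 0.495 ± 0.08 with #1 (adjusted p = 0.000111) and -0.61 ± 0.08 with #2 (adjusted p = 6.19e-05), and the hairpins differed by 1.11 (adjusted p = 4.76e-08). Of 7 genes of MYC and its partners, 5 were called with #1 (3 higher) and 2 with #2 (both lower), beside 47.8% and 25% of all genes. Apart from *MYC*, *MXI1*, which encodes a MAX-binding repressor, was called with both, at -0.30 and -0.34.

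Other genes of the pathway were counted by role, beside the same shares of all genes called (47.8% with #1 and 25% with #2). Of 8 box C/D assembly genes, 3 rose and 3 fell with #1 (75% called), and 3 fell with #2 (37.5%). *PIH1D1*, of the R2TP chaperone complex, fell with both (-0.23 and -0.29), and *NUFIP1*, an assembly scaffold, rose by 0.22 with #1 and fell by 0.38 with #2. *SNU13*, the core protein that binds the snoRNA first and is listed by its older symbol *NHP2L1*, rose by 0.23 with #1 (adjusted p = 0.0173) and read -0.17 with #2 (adjusted p = 0.102).

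Of 10 transport and maturation genes, 3 fell and 1 rose with #1 (40% called), near the 47.8% of all genes. With #2, 5 fell (50%), beside 13.4% of all genes called lower. The export receptor *XPO1* (-0.20 and -0.31) and the 3′ exonuclease *TOE1* (-0.32 and -0.37) fell with both hairpins. *WRAP53*, which brings H/ACA RNPs to Cajal bodies, read -0.21 (adjusted p = 0.169) and -0.08 (adjusted p = 0.683). The telomerase gene *TERT* read -0.46 (adjusted p = 0.0616) and -0.25 (adjusted p = 0.37), and the telomerase RNA *TERC*, which has no long poly(A) tail, had 0 to 4 counts in a library.

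Of 23 genes of the U3 snoRNP and the small-subunit processome, the particle that box C/D U3 snoRNA assembles on pre-ribosomal RNA, 8 rose and 5 fell with #1, whereas 13 fell and 0 rose with #2. Between the hairpins 14 were higher and 2 lower with #1. Of all genes, 23.7% rose and 24.1% fell with #1, 11.6% rose and 13.4% fell with #2, and 24.6% were higher and 24.2% lower between the hairpins. *IMP4*, a U3 protein, read 107, 92.5 and 101 CPM in sh-Control, 137, 145 and 136 CPM in shDDX41 #1, and 84.1, 77.5 and 82.8 CPM in shDDX41 #2, with no overlap between groups. *IMP4* rose by 0.48 with #1 and fell by 0.296 with #2, and *IMP3*, *UTP15*, *WDR43* and *NOL11* were also called in opposite directions. *TBL3* fell with both, by 0.64 and 0.28.

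Over all 49 of 50 pathway genes that could be tested, 13 fell and 15 rose with #1, 23 fell and 0 rose with #2, and 4 were lower and 24 higher with #1 than with #2. Of all genes, 24.1% fell and 23.7% rose with #1, and 13.4% fell and 11.6% rose with #2. Between the hairpins 24.2% were lower and 24.6% higher with #1. The share called was 57.1% with #1, 46.9% with #2 and 57.1% between the hairpins, beside 47.8%, 25% and 48.8% of all genes. The median log2 fold change of the pathway genes was 0.01 with #1 and -0.22 with #2. Without library D of shDDX41 #1, 32 pathway genes were called with #2, beside 4248 of 12902 genes over all. Without library A of shDDX41 #2, 18 were called, beside 2261 of 12872. Those were the highest and lowest counts of pathway genes with #2 over the alternatives. Of the 8 myeloid markers tested, *LYZ* (0.96), *MPO* (0.59), *ITGAM* (0.52) and *PTPRC* (0.18) rose with shDDX41 #2, and the other 4 read -0.25 (*CSF1R*) to -0.04 (*FLT3*) and were not called. Their part in the lower values of the pathway genes there was not tested.

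**Figure D5:**
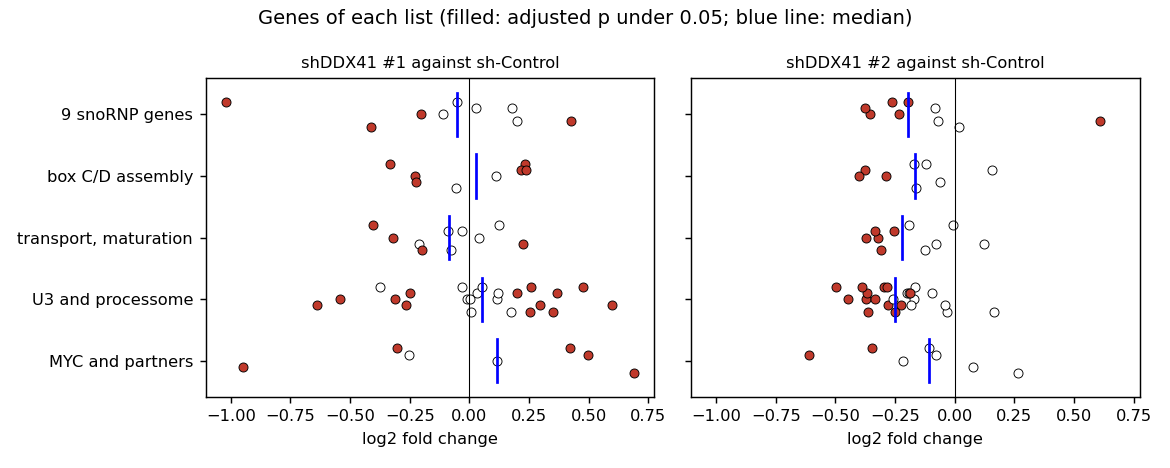
Log2 fold change against sh-Control (x axis) for the 9 snoRNP genes and 4 lists of pathway genes, with 1 point per gene, filled for an adjusted p under 0.05, and a blue line at the median of each list. With shDDX41 #1 the called genes lie on both sides of 0, and with shDDX41 #2 *SHQ1* is the one called gene to the right of 0.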

How the data were processed

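The authors isolated RNA from GFP-sorted MOLM13 cells, made poly(A)-selected libraries and deposited raw read counts per gene, not normalized, for 9 libraries. The submitters' processing notes name FastQC 0.11.7, HISAT2 2.0.5 and featureCounts 1.5.2, with the builds hg38 and mm10 and no role for each. The annotation, the strand setting and the treatment of multi-mapping reads are not given in the sources used here. The labels name a stranded kit and the methods of the study an unstranded one, so genes overlapping on opposite strands are uncertain. *NOP56*, *NHP2* and *SHQ1* have processed pseudogenes that could share reads.

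Differential expression was tested on the counts with edgeR 4.0.16 under R 4.3.3 (filterByExpr with a minimum count of 10, TMM scaling, a quasi-likelihood fit to all 9 libraries with group as the only term), and adjusted within each contrast by Benjamini-Hochberg at 0.05. Of 30017 genes, 12712 (42.3%) were tested. CPM use TMM-scaled library sizes, and an SE is the log2 fold change over the square root of F. The script was tested on simulated data with far fewer changed genes than were called here. That test does not cover scaling when many genes change. Positions are from GENCODE v29 (GRCh38). Alternatives used limma 3.58.1 and DESeq2 1.42.0. Members and lists were chosen with earlier results of these data known. Named were all members, *DDX41*, *MYC*, *SNU13*, *WRAP53*, *TERC*, *TERT*, list genes called with both hairpins (otherwise the 2 of smallest adjusted p in each contrast with control), and for each member the 2 genes of most similar profile. *SNORD56*, *SNORA51*, *MPHOSPH10* and *NAT10* were added after their values were seen.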

Additional observations from a re-analysis of the deposited data

Results flagged for a closer look

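For 10 of 62 snoRNP, pathway and intronic snoRNA genes tested, every shDDX41 #1 library lay on one side of all sh-Control libraries and every shDDX41 #2 library on the other, and the hairpins also differed by edgeR's test. That is 16.1% of these genes, beside 7.21% of the 12712 genes tested. None of the 9 snoRNP members was among them. In each of the 10 genes hairpin #1 gave the higher level. Of all genes tested, 3.76% met the same rule with #1 higher and 3.45% with #1 lower. The log2 difference between the hairpins was 1.11 for *MYC*, 0.77 for *IMP4*, 0.62 for *IMP3*, 0.59 for *NUFIP1*, 0.55 for *WDR43*, 0.54 for *UTP15*, 0.52 for *NOL11*, 0.49 for the acetyltransferase gene *NAT10*, 0.40 for *NHP2L1* (*SNU13*) and 0.39 for *MPHOSPH10*. Taken alone against control, *NAT10* was not called with #1 (0.12, adjusted p = 0.118), and *NHP2L1* and *MPHOSPH10* (-0.19, adjusted p = 0.0502) were not called with #2.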

How the results depend on the processing

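Over 16 alternatives, 445 of 480 values of the 9 members and *DDX41* kept their direction and their side of the threshold, 28 were no longer called, 4 became called and 3 changed sign. The changes of sign were in values near 0: *NOP10* with #1 under upper quartile scaling (0.0247), *NOP56* with #1 without library A of sh-Control (-0.00329 to 0.0575 over the libraries left out), and *NHP2* with #2 without library B of sh-Control (-0.0258 to 0.0455). So were those of *SNORD110* with #2, -0.0183 with limma voom, -0.00511 with the replicate block and -0.15 to 0.19 over the libraries left out, of *WRAP53* with #2 (-0.18 to 0.0354), and between the hairpins of *TOE1* (-0.0196 to 0.125) and *MXI1* (-0.00975 to 0.0659). Upper quartile scaling, which moved the median of all genes with #1 from 0.01 to 0.09, called 3 members higher with #1 (*SHQ1*, *FBL* and *NAF1*). Leaving out 1 library gave 1 to 2 members higher with #1, 3 to 5 lower with #2 (3 without library B or D of shDDX41 #2), and between the hairpins 4 to 8 called, 2 to 5 of them higher. Over all genes, the same fits called 5368 to 6256 with #1, 2054 to 4248 with #2 and 5169 to 6328 between the hairpins. Whether the replicate letters pair libraries is not stated, and the main fit did not pair them. Of 9 same-letter pairs, 2 had deviations correlated above 0.1 (-0.06 to 0.24), and 7 of 9 libraries correlated best with their own letter. The same-letter correlations were 0.07, 0.16 and 0.24 between sh-Control and shDDX41 #1, and -0.06 to 0.02 in pairs with shDDX41 #2. With the replicate block, 4, 6 and 8 members were called, as without it, and over all genes 6351, 3570 and 6503 against 6078, 3174 and 6204. Counts of the intronic snoRNAs were below 70 in a library, which limits their precision.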
